A study of Mus musculus with 12 samples.

Results

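The genes described here are 9 heat shock protein genes and Hsf1, the gene of the transcription factor that induces them, 10 members of the 37991 genes in each table of counts. They were taken by name, with earlier results of these data known: Hsf1, Hspa8, Hspa1a, Hspa1b, Hsph1, Dnajb1, Hsp90aa1, Hsp90ab1, Hspd1 and Hspe1. Of these, 8 had reads and passed the filter on low counts, which 12837 genes passed. Hspa1a and Hspa1b had 0 reads in all 12 libraries. The series sequenced polyadenylated RNA of MEL cells, which are mouse erythroleukemia cells that mature along the red cell path when induced in culture, and all 12 libraries came from induced cells. Control was the unmodified line, labelled control and named as WT in the extraction protocol. KD was the line with LDB1 knocked down. LDB1 is a LIM-domain-binding protein that links erythroid transcription factors and takes part in looping between enhancers and promoters. The group named delta45 was KD cells that carried an Ldb1 delta 4/5 construct, and FL was KD cells that carried a full-length Ldb1 construct, so KD, delta45 and FL share the knockdown and control does not. Each group had 3 libraries. The labels do not say how the knockdown was made, whether a line was 1 clone, what the inducer was or when cells were harvested. No label states that replicate libraries are from different cultures; p-values here thus reflect only how much these samples vary, and that variation may be technical.

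Heat shock proteins are molecular chaperones that fold new proteins and refold or hand on damaged ones. In the heat shock response, HSF1 is held inactive by chaperones in unstressed cells; when unfolded proteins occupy the chaperones, HSF1 forms trimers and binds heat shock elements, which are inverted repeats of the letters GAA, in the promoters of chaperone genes. In erythroid cells, HSP70 is known to protect GATA1 from cleavage during maturation, and HSP90 matures heme-regulated and other kinases.

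Promoter letters are shown first for some of the members whose annotated start holds a match to the heat shock element. The levels of Hspe1 and Hspd1, whose windows share such a match, are set beside each other further on. The windows run from 250 bases before to 50 bases after an annotated start site, 5′ to 3′ on the gene's strand, and come from RefSeq on GRCm38.p6, while the counts were made on mm9. Of the 10 members, 6 had a window, and Hspa8, Hsp90aa1, Hsp90ab1 and Hsf1 had none. Capitals mark matches to the 8-base motifs GAANNTTC and TTCNNGAA, searched on both strands, which may overlap each other. The Hspe1 window is chr1:55087898-55088197 on the plus strand, the first Hsph1 window is chr5:149636287-149636586 on the minus strand, and the Hspa1a window is chr17:34972107-34972406 on the minus strand.
Hspe1: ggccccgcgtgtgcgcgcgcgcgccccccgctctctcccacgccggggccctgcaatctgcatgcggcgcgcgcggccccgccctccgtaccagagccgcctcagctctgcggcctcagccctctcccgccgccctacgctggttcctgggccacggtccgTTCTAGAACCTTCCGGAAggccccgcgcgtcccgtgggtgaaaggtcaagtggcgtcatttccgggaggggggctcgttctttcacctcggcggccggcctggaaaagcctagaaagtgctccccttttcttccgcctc
Hsph1: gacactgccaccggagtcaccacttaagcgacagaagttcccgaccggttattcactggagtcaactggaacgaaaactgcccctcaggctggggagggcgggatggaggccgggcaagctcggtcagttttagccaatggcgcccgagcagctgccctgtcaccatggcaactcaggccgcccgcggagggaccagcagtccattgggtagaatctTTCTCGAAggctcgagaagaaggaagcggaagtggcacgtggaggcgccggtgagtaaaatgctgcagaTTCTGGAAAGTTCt
Hspa1a: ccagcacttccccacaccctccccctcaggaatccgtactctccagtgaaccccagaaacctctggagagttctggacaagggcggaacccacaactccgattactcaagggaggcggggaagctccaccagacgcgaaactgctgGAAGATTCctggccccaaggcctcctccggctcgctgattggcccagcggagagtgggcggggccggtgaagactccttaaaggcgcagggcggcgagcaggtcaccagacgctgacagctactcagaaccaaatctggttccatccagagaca

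Hspe1 and Hspd1, which encode the co-chaperonin and the chaperonin of mitochondria, lie head to head and share their promoter region. The Hspe1 window and 1 of the 2 Hspd1 windows (chr1:55087883-55088182, minus strand) have 285 bases in common, read on opposite strands, with start sites 216 bases apart. The run of capitals in the Hspe1 window starts at position -89 from its start site, and the same run, read on the other strand, starts at position -144 in that Hspd1 window. It holds the 13-base motif GAANNTTCNNGAA, a longer heat shock element searched on both strands, which occurs in 198 of 32851 promoter windows of this length (0.603%). The other Hspd1 window, with its start site 95 bases from that of Hspe1, has no match. In the Hsph1 window the 13-base motif starts at position 36, after the start site. The Hspa1a and Hspa1b windows differ at 4 of 300 bases and each hold 1 match to an 8-base motif, at position -104. Both Dnajb1 windows lack a match. Either 8-base motif occurs in 4946 of the 32851 windows (15.1%), so a match of that length is common. These matches describe letters, not binding.

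Each library held 8783970 to 20464959 gene reads. Levels are CPM, read counts scaled to library size, after TMM scaling unless stated. Changes are log2 differences with their SE, fitted by edgeR (quasi-likelihood) over the 12 libraries, and a gene is called where the Benjamini-Hochberg adjusted p over all 12837 genes is under 0.05. Ldb1, the targeted gene, was at 637 to 773 CPM in control, fell to between 97.1 and 159 CPM in KD, was at 750 to 781 CPM with delta45 and at 3210 to 3696 CPM with FL, as the labels say. Marker levels are sums of CPM by library totals, without TMM scaling. All 12 erythroid markers examined were detected. Their sum was 12690 to 13670 CPM in control, with KD at 3501 to 5667, delta45 at 5798 to 5954 and FL at 29700 to 36210. Not every marker followed this sum: some were higher in KD than in control, and some lower in FL than in control. The 8 myeloid markers summed to 4.09 to 15.9 CPM over all libraries, with S100a8 at 0. The 8 lymphoid markers summed to 14.1 to 16.5 CPM in control; KD was at 36.8 to 45.4, delta45 at 5.94 to 6.40 and FL at 5.44 to 8.41, with Ms4a1 at 0 and most reads in Lck and Cd3g. The 8 stromal and endothelial markers summed to 12.6 to 57.6 CPM, with Col1a2, Dcn and Lum at 0. Counts entered as alignments that were not unique made up 50.6 to 53.3% of all tallied counts in control, which need not equal a share of reads. This share was 42.7 to 48.5% for KD, 38.7 to 39.2% for delta45 and 42.3 to 47.1% for FL. The part of the marker levels and of this share in the results below was not tested.

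In KD cells, 7 of the 8 members with reads were higher than in control and 0 were lower by edgeR (0 at an unadjusted p under 0.05, and 0 with DESeq2). Over all tested genes, 25.6% were called higher, 24.1% lower and 49.7% either way. Because the members were chosen with earlier results of these data known, their counts beside these shares are a description only. The members that rose covered the cytosolic HSP90 pair, the HSP70 gene Hspa8 and its partners Hsph1 and Dnajb1, the mitochondrial chaperonin Hspd1, and Hsf1. Their changes ran from 1.32-fold for Hsf1 to 3.27-fold for Hsp90aa1. Hspe1 was the member not called, with a log2 change of -0.023 and a 95% confidence interval of -0.35 to 0.30. The median log2 change over the 8 members was 0.67, and over all tested genes it was 0.02. For the 7 called members the KD libraries did not overlap the control libraries, against 50.7% of all tested genes. Together the members took 0.239 to 0.290% of gene reads in control, while the share was 0.443 to 0.479% for KD, 0.469 to 0.473% for delta45 and 0.365 to 0.381% for FL. Most of these reads were of Hsp90ab1, with 408105 over the 12 libraries, against 65792 for Hsph1, the next member. In these bulk samples, more RNA per cell and more cells with the RNA cannot be told apart.

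**Figure D1:**
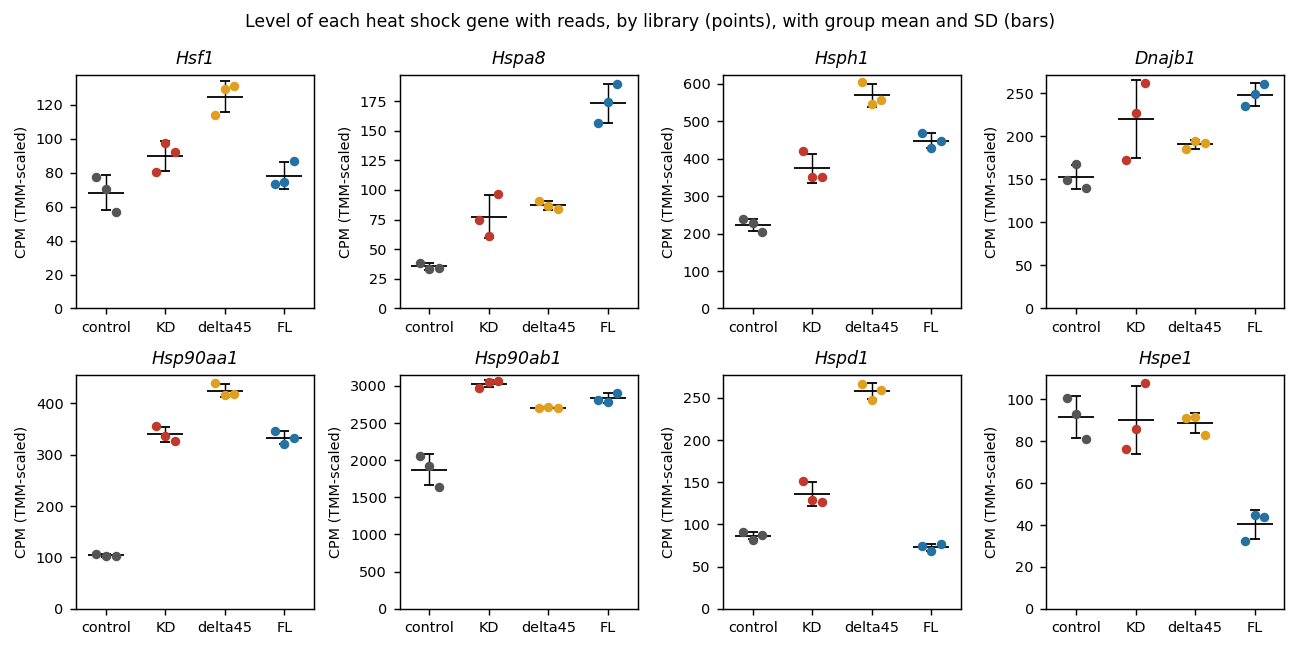
CPM (TMM-scaled, linear axis from 0) of the 8 members with reads in control, KD, delta45 and FL; points are the 3 libraries of a group and bars the mean and SD. Hsp90aa1 was lowest in control (102 to 106 CPM), Hspa8 highest in FL (157 to 189 CPM), and Hspe1 lowest in FL (32.5 to 45.0 CPM).

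Hsf1 encodes the master regulator of the response. It was at 77.6, 70.1 and 57.0 CPM in the control libraries, 80.2, 97.3 and 92.0 in KD, 114, 129 and 131 in delta45, and 73.2, 74.5 and 87.2 in FL. The delta45 libraries stood above all 9 others, the KD libraries lay above those of control, and FL overlapped both control and KD. From low to high the group means were control, FL, KD and delta45. The rise in KD over control was 0.40 ± 0.13 (SE, adjusted p = 0.0224), and it was not called without the third control library (adjusted p = 0.0974), without the second KD library (0.0828) or when only those 2 groups were fitted (0.0805). In delta45 Hsf1 was 1.39-fold higher than in KD (log2 0.47 ± 0.13, adjusted p = 0.00695) and 1.83-fold higher than in control (adjusted p = 7.1e-05). FL was lower than delta45 by 1.59-fold (log2 -0.67 ± 0.13, adjusted p = 0.000755). FL differed from KD by -0.20 (95% interval -0.48 to 0.09, adjusted p = 0.216), a change that was -0.46 and called when libraries were scaled by their totals only (adjusted p = 0.00778). FL differed from control by 0.20 (-0.08 to 0.49, adjusted p = 0.198), which turned to -0.019 with library totals only.

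Hspa8 encodes HSC70, the HSP70 made in unstressed cells. Its level was 38.6, 33.7 and 34.1 CPM in control, 74.7, 60.9 and 96.8 in KD, 91.0, 86.4 and 83.7 in delta45, and 157, 174 and 189 in FL. All control libraries were lowest and all FL libraries highest, while KD and delta45 overlapped. KD was 2.19-fold above control (log2 1.13 ± 0.15, adjusted p = 5.12e-05), and FL was 2.24-fold above KD (1.16 ± 0.15, adjusted p = 2.43e-05), 1.99-fold above delta45 (0.99 ± 0.15, adjusted p = 7.8e-05) and 4.89-fold above control (2.29 ± 0.15, adjusted p = 7.16e-08). Hspa8 was thus the member with the highest counted fold in FL over control. Of the 50-base windows of its longest protein-coding transcript, 25.2% occur in no other annotated gene, the lowest share among the tested members. Its near copies matched no entry by name in the counts. The part of reads shared with those copies in this fold was therefore not tested. The change in delta45 over KD was 0.17 (95% interval -0.15 to 0.48, adjusted p = 0.337), and it was called without the third KD library (0.36, adjusted p = 0.0212).

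Hspa1a and Hspa1b are the heat-inducible HSP70 genes, adjacent near-identical copies. Each was listed at 0 reads in all 12 libraries. There 3 reads, the limit that a count of 0 allows, correspond to 0.147 to 0.341 CPM by library totals, without TMM scaling. That limit holds for reads that could be assigned: in the GENCODE M21 transcripts, 1716 windows of 50 bases occur in both genes, and 33.7% of the Hspa1a windows and 37.7% of the Hspa1b windows occur in no other gene. In addition, 19% of the exon bases of Hspa1a lie within exons of Gm20481, which also had 0 reads. No fold is given for either gene, and RNA whose reads aligned to several places would not be counted.

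Hsph1 encodes HSP110, which exchanges the nucleotide of HSP70. It was at 238, 227 and 205 CPM in control, 419, 351 and 351 in KD, 605, 546 and 556 in delta45, and 468, 428 and 447 in FL. No library of a group overlapped another group, and the order was control, KD, FL and delta45. KD exceeded control by 1.67-fold (log2 0.74 ± 0.10, adjusted p = 8.28e-05), delta45 exceeded KD by 1.52-fold (0.61 ± 0.10, adjusted p = 0.000315), and FL exceeded control by 2.004-fold (1.003 ± 0.105, adjusted p = 3.82e-06). The step from KD to FL was small, 0.26 ± 0.10 (adjusted p = 0.0469). It was not called without the second or the third KD library or without any 1 of the FL libraries (adjusted p 0.0612 to 0.129), nor without the low-count filter (0.0973) or with only the 2 groups fitted (0.0731), rose to 0.41 without the first KD library, and turned to -0.014 with library totals only. FL was below delta45 by 1.27-fold (-0.35 ± 0.10, adjusted p = 0.0132), a call lost without the first delta45 library (adjusted p = 0.0957) or the second FL library (0.0541).

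Dnajb1 encodes HSP40, a J-protein that delivers clients to HSP70. Its level was 150, 168 and 140 CPM in control, 172, 227 and 262 in KD, 185, 195 and 193 in delta45, and 235, 250 and 262 in FL. Control lay below the other groups, and the KD libraries spread over the range of the other 2. KD was 1.44-fold above control (log2 0.53 ± 0.14, adjusted p = 0.00572) and FL 1.63-fold above control (0.70 ± 0.14, adjusted p = 0.000619). Neither FL (0.17, 95% interval -0.12 to 0.47; -0.084 with library totals only) nor delta45 (-0.21, interval -0.50 to 0.08) was called against KD. With 1 KD library left out these changed: without the third, FL against KD was called (0.32, adjusted p = 0.0399), and without the first, delta45 against KD was called (-0.33, adjusted p = 0.016). FL was above delta45 by 1.30-fold (0.38 ± 0.13, adjusted p = 0.0293), which was not called without the first delta45 library (adjusted p = 0.0584) or the second FL library (0.0679) or the third (0.0948), or with library totals only (0.477). For delta45 against control the change was 0.32 (interval 0.03 to 0.61, adjusted p = 0.051), and it was called with library totals only (0.38, adjusted p = 0.0146), with a 5 CPM filter (0.0475), with only the 2 groups fitted (0.00741), with a replicate block (0.0392) and without the second control library (0.0423).

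Hsp90aa1 and Hsp90ab1 encode the inducible and the constitutive HSP90 of the cytosol. Hsp90aa1 was at 106, 103 and 102 CPM in control, 355, 337 and 327 in KD, 439, 417 and 418 in delta45, and 346, 321 and 333 in FL. Every control library was far below every other library, delta45 was highest, and FL and KD overlapped. KD was 3.27-fold above control (log2 1.71 ± 0.09, adjusted p = 2.1e-08), delta45 4.09-fold (2.03 ± 0.09, adjusted p = 2.14e-09) and FL 3.21-fold (1.68 ± 0.09, adjusted p = 7.55e-09). Among the members, Hsp90aa1 had the highest fold of KD over control and of delta45 over control. The 95% interval for FL against KD was -0.21 to 0.15 around a change of -0.029 (adjusted p = 0.788). With library totals only that change was -0.30 and was called (adjusted p = 0.0118). FL was 1.27-fold below delta45 (-0.35 ± 0.08, adjusted p = 0.00351), and delta45 was 1.25-fold above KD (0.32 ± 0.08, adjusted p = 0.00555).

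Hsp90ab1 was at 2051, 1915 and 1641 CPM in control, 2972, 3049 and 3063 in KD, 2707, 2710 and 2706 in delta45, and 2807, 2785 and 2910 in FL. Control was again lowest in every library. The increase was 1.62-fold in KD (log2 0.70 ± 0.10, adjusted p = 0.000103), 1.45-fold in delta45 (0.53 ± 0.10, adjusted p = 0.000447) and 1.52-fold in FL (0.60 ± 0.10, adjusted p = 0.000215). The 3 groups that share the knockdown were not called against each other with TMM scaling, although their libraries did not overlap: FL against KD was -0.10 (interval -0.31 to 0.12; -0.36 and called with library totals only, adjusted p = 0.00618), delta45 against KD -0.16 (-0.38 to 0.06), and FL against delta45 0.07 (-0.15 to 0.28; -0.21 with library totals only). Per 100 reads of Hsp90ab1 there were 5.60 ± 0.54 reads of Hsp90aa1 in control (SD, n = 3), 11.2 ± 0.65 in KD, 15.7 ± 0.46 in delta45 and 11.8 ± 0.48 in FL. This ratio does not depend on scaling between libraries, and its control libraries (5.19 to 6.22) and delta45 libraries (15.4 to 16.2) overlapped no other group.

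Hspd1 encodes HSP60, the barrel-shaped chaperonin of mitochondria. Its level was 90.8, 82.0 and 87.5 CPM in control, 152, 129 and 127 in KD, 267, 248 and 260 in delta45, and 74.6, 68.5 and 76.5 in FL. The order was FL, control, KD and delta45, with no library of a group inside another group. KD was 1.57-fold above control (log2 0.65 ± 0.10, adjusted p = 0.000166), and delta45 was 1.90-fold above KD (0.93 ± 0.10, adjusted p = 7.74e-06). FL was 1.86-fold below KD (-0.89 ± 0.10, adjusted p = 8.62e-06) and 3.53-fold below delta45 (-1.82 ± 0.10, adjusted p = 1.27e-08). FL against control was -0.24 ± 0.10, at an adjusted p of 0.05 and just outside the threshold. It was called with RLE scaling (adjusted p = 0.0474), with library totals only (-0.47, adjusted p = 0.00308), with a 5 CPM filter (0.0355), with DESeq2 (0.0365), with only the 2 groups fitted (0.0362) and with a replicate block (0.0377).

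Hspe1 encodes HSP10, the lid of that barrel. It was at 101, 92.9 and 81.0 CPM in control, 76.3, 86.1 and 108 in KD, 91.0, 91.6 and 83.0 in delta45, and 32.5, 45.0 and 44.0 in FL. Control, KD and delta45 overlapped, and all FL libraries were below them. FL was 2.22-fold below KD (log2 -1.15 ± 0.16, adjusted p = 3.99e-05), 2.19-fold below delta45 (-1.13 ± 0.15, adjusted p = 4.26e-05) and 2.26-fold below control (-1.18 ± 0.16, adjusted p = 2.88e-05). In delta45 the change was -0.025 against KD (95% interval -0.35 to 0.30) and -0.047 against control (-0.37 to 0.28). Of the genes whose windows share the motif printed above, Hspd1 was thus 2.98-fold higher in delta45 than in control (log2 1.57 ± 0.10, adjusted p = 4.99e-08), and Hspe1 was not called there. Per 100 reads of Hspd1, Hspe1 had 106 ± 11.3 reads in control (SD, n = 3), 67.4 ± 17.5 in KD, 34.3 ± 2.48 in delta45 and 55.6 ± 11.2 in FL. Control (92.7 to 113) and delta45 (31.9 to 36.9) overlapped no other group in this ratio, and KD and FL overlapped each other. Exons of Hspd1 and Hspe1 overlap by 112 bases, whose reads without strand information cannot be told apart.

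**Figure D2:**
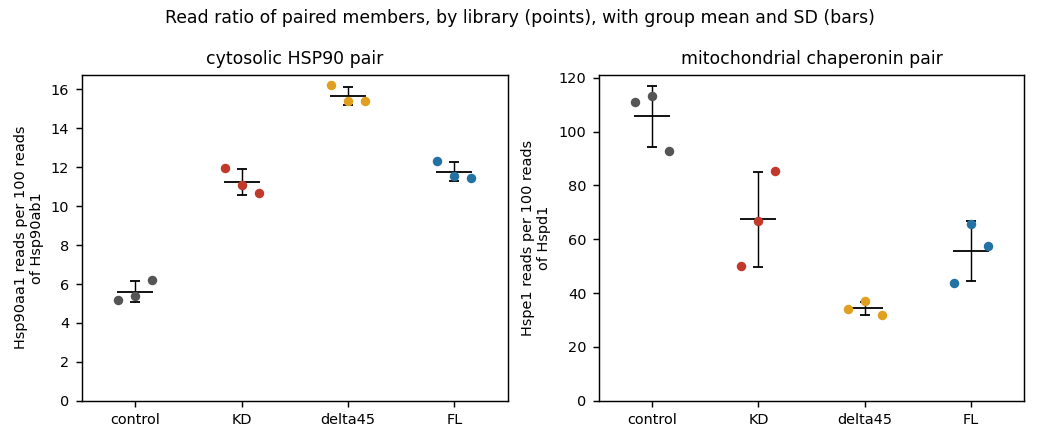
Reads of Hsp90aa1 per 100 reads of Hsp90ab1 and of Hspe1 per 100 reads of Hspd1 in each group, on linear axes from 0; points are libraries and bars the mean and SD of 3. The first ratio is lowest in control (5.60) and highest in delta45 (15.7), and the second is highest in control (106) and lowest in delta45 (34.3).

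The lines with the constructs were compared through 5 further contrasts. These reuse the same KD, delta45, FL and control libraries and so are not independent of each other or of KD against control. In FL against KD, which asks what full-length LDB1 changed in knockdown cells, 2 members were called higher (Hspa8 and Hsph1), 2 lower (Hspd1 and Hspe1) and 4 neither way. Over all tested genes 26.3% were called higher, 31.7% lower and 58% either way, so the share of members called lies near the background. The member median was -0.06, as was that of all genes, and the libraries of 5 members did not overlap, against 59.7% of all genes. With delta45 against KD, 4 members were higher (Hsf1, Hsph1, Hsp90aa1 and Hspd1) and 0 lower (0 at an unadjusted p under 0.05 and 0 with DESeq2; 1, Dnajb1, without the first KD library). There the background was 29.2% higher, 30.7% lower and 59.9% either way, the member median 0.24 against -0.01 for all genes, and the count without overlap 5, against 63.5% of all genes.

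FL against delta45 compares the constructs directly. Here Hspa8 and Dnajb1 were higher, Hsf1, Hsph1, Hsp90aa1, Hspd1 and Hspe1 were lower, and Hsp90ab1 was not called. Of all tested genes 25.8% were higher, 27% lower and 52.8% called either way. The libraries did not overlap for any of the 8 members, against 69% of all genes, and the member median was -0.35 against -0.01. The FL group had 5 members higher than control and 1 lower, Hspe1, where 28.1% of all genes were higher, 31.2% lower and 59.3% called either way. Its median was 0.65 against -0.01, and 7 members did not overlap control, against 69.8% of all genes. In delta45, 6 members were higher than control and 0 lower (0 at an unadjusted p under 0.05 and 0 with DESeq2), beside 31.9% higher, 32.5% lower and 64.4% either way among all genes, with a median of 1.08 against 0.01 and 7 members without overlap, against 74.5%.

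The FL comparisons depend on scaling, since the TMM factors were 0.870 to 0.880 in FL and 1.002 to 1.114 in the other groups. With library totals only, the median of all genes moved by -0.27 in FL against KD, by -0.28 in FL against delta45 and by -0.22 in FL against control. Of the called genes, the share that was higher then fell from 45.4 to 26.7%, from 48.8 to 29.2% and from 47.4 to 31.8%. The member counts became 1 higher and 5 lower in FL against KD, where Hsf1, Hsp90aa1 and Hsp90ab1 joined Hspd1 and Hspe1, and 1 higher in FL against delta45.

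**Figure D3:**
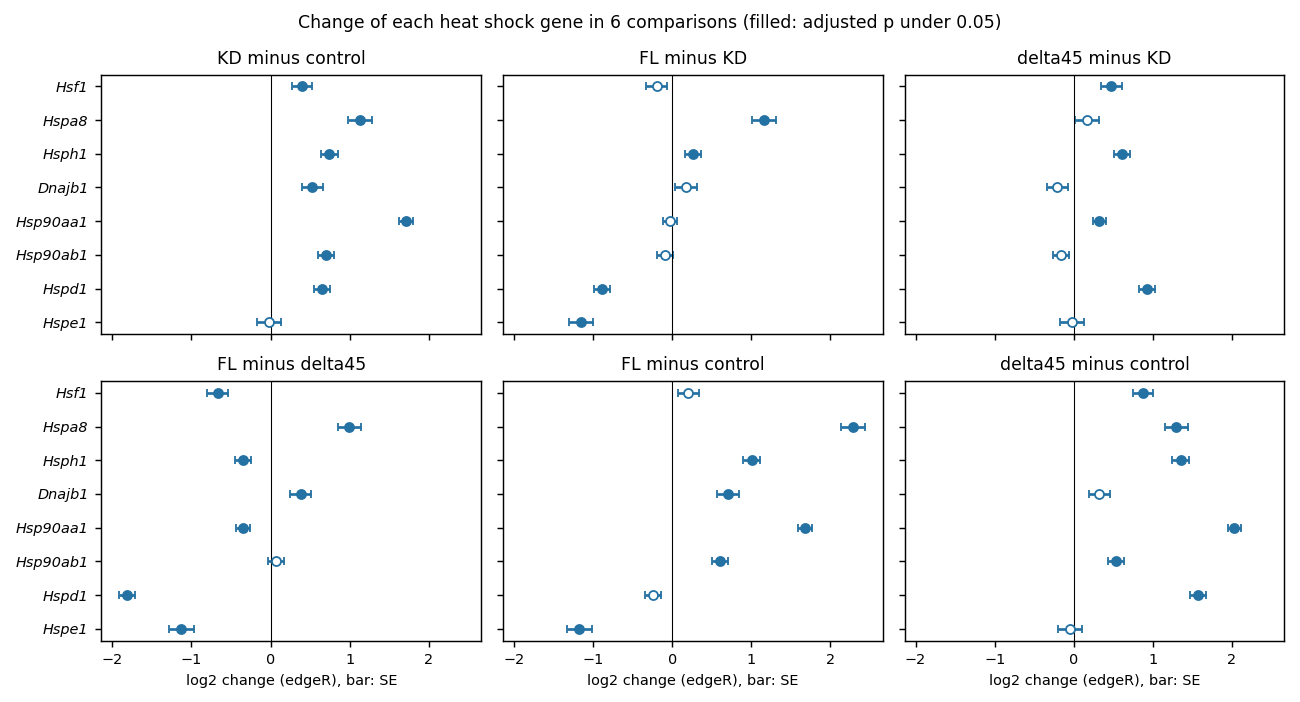
Log2 change ± SE (edgeR) of the 8 members with reads in the 6 comparisons; filled points passed an adjusted p under 0.05. With TMM scaling 7 points are filled on the right side in KD minus control, and in FL minus delta45 Hspa8 and Dnajb1 lie right of 0 and Hspd1 (-1.82) farthest left; with library totals only Hsph1 and Dnajb1 in FL minus KD, Hsp90ab1 in FL minus delta45 and Hsf1 in FL minus control change side, as does Hspe1, at -0.023 and -0.047, in KD and delta45 minus control.

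How much of each member could be counted depends on its near copies in the genome. Windows were taken from the longest annotated protein-coding transcript of each member. Of the 50-base windows, all of Hsf1 and Hsph1, 99.6% of Dnajb1 and 95.5% of Hsp90ab1 occur in no other annotated gene. The share was 55.2% for Hspd1 and for Hspe1, 41.5% for Hsp90aa1 and 25.2% for Hspa8. With windows of 100 bases it was 73.1%, 77.6%, 52.5% and 36.6%. The levels of the 4 last-named genes and of the Hspa1 pair are therefore uncertain, since reads that fit several places are left out or given to a copy.

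Copies with their own counts had their lowest and highest groups in common with the parent gene. Gm12346, a processed pseudogene of Hsp90aa1, was at 39.8 ± 4.07 CPM in control (SD, n = 3), 127 ± 10.6 in KD, 189 ± 8.54 in delta45 and 146 ± 18.1 in FL. Hspd1-ps3, a processed pseudogene of Hspd1, was at 72.9 ± 2.71, 102 ± 15.1, 218 ± 15.5 and 62.1 ± 6.38 CPM in the same order. When the reads of Gm12346 and Gm5844 were added to Hsp90aa1 and those of Hspd1-ps3 to Hspd1, a step chosen after seeing the data, KD exceeded control by 1.69 (log2, Hsp90aa1) and 0.58 (Hspd1), and the number of members called was as before in each of the 6 comparisons. The 10 near copies of Hspa8 matched no entry by name in the counts, nor did AC117239.2, a near copy of Hspe1. This step could thus not be done for Hspa8 or Hspe1. For Hsp90aa1 it left out Gm5511, a further copy without an entry.

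**Figure D4:**
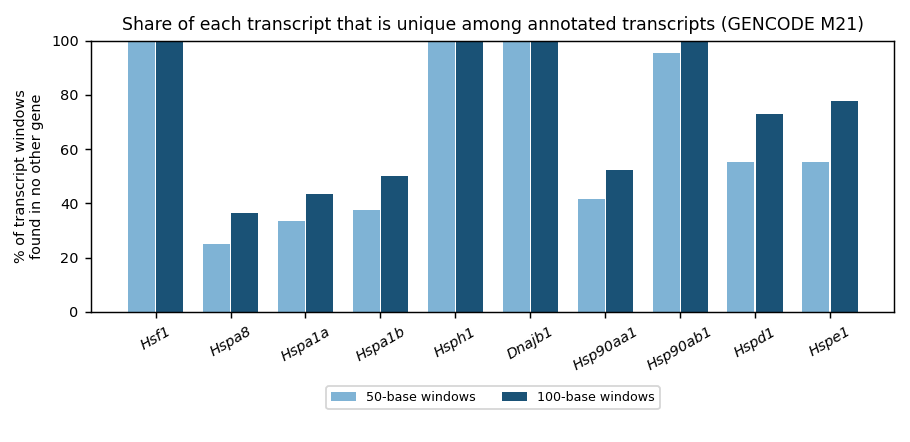
Share of 50-base and 100-base windows of each member's longest protein-coding transcript that occur in no other annotated gene (GENCODE M21, exact matches), in percent from 0 to 100. Hsf1 and Hsph1 reach 100%, and Hspa8 is lowest at 25.2% and 36.6%.

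The members work with many other chaperones, and 129 such genes in 10 lists, some in more than 1, were examined, of which 115 were tested. In KD against control the lists with the most calls upward were the HSP90 co-chaperones, 11 higher and 2 lower of 19 (1 lower with only those 2 groups fitted), and other heat-inducible genes, 10 higher and 3 lower of 20. Of all tested genes, 25.6% were called higher and 24.1% lower in this comparison. The list medians were 0.45 and 0.36, against 0.02 for all genes. Ahsa1, which stimulates the HSP90 ATPase, rose from 117 ± 8.97 to 278 ± 49.5 CPM (SD, n = 3; log2 1.25 ± 0.13, adjusted p = 7.38e-06). Fkbp5 and Fkbp4, immunophilins that bind HSP90 in steroid receptor complexes, rose from 64.1 to 152 CPM and from 167 to 321 CPM (log2 1.25 and 0.95). Tomm34, which hands proteins between HSP70, HSP90 and mitochondria, rose from 37.6 to 73.6 CPM. Several of the heat-inducible genes are also in other lists.

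Partners of HSP70 changed in both directions in KD, where 49.7% of all tested genes were called, 25.6% higher and 24.1% lower. Of 16 J-proteins, 5 were higher and 7 lower than in control (median -0.25, against 0.02 for all genes). Dnaja1 rose from 33.0 to 75.8 CPM (log2 1.20) and Dnajc7 from 88.2 to 176 CPM (0.996), while Dnaja4 fell from 92.6 to 37.9 CPM (-1.29) and Dnajb6 from 26.4 to 13.6 CPM (-0.95). Among 12 exchange factors and other partners, 5 were higher and 2 lower (3 higher with only those 2 groups fitted). Hspbp1, an exchange factor of HSP70, rose from 18.4 to 47.0 CPM (log2 1.36), Bag5 rose from 31.2 to 72.3 CPM (1.21), and Bag3, the HSF1 target that couples HSP70 to selective autophagy, fell from 33.7 to 24.7 CPM (-0.45). Of 6 other HSP70 and HSP110 genes, 2 were higher and 2 lower (1 and 1 with only those 2 groups fitted, and 1 lower with library totals only). Hspa4 rose (0.35) and Hspa9, the HSP70 of mitochondria, fell from 543 to 360 CPM (-0.59). The HSF family and HSF1 regulators gave 2 higher and 2 lower of 10, a share called below that of all genes (1 lower with library totals only, without the filter or with only those 2 groups fitted), with Crebbp and Vcp higher (0.98 and 0.63) and the deacetylase gene Hdac6 lower (-0.58).

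Other folding machines gave mixed counts in KD, beside the 49.7% of all tested genes called. The TRiC chaperonin and prefoldin fold actin and tubulin. Of their 15 genes, 5 were higher and 3 lower (3 and 0 with only those 2 groups fitted). Cct3 rose from 246 to 497 CPM (log2 1.02), and Vbp1 fell from 241 to 126 CPM (-0.93). The Vbp1 control libraries were uneven, at 188, 169 and 366 CPM, and its call was lost with only those 2 groups fitted. Among 16 mitochondrial chaperones and proteases, 5 were higher and 5 lower. Hscb, a J-protein for iron-sulfur cluster transfer, fell from 60.4 to 24.1 CPM (-1.33), and Spg7, a protease subunit, fell from 80.4 to 36.5 CPM (-1.14). Timm44, in the same list, rose from 84.0 to 135 CPM (0.69). Of 10 genes listed by symbol as small heat shock proteins, 2 passed the filter. Their changes were 0.033 for Hspb6 (95% interval -0.49 to 0.56) and 0.34 for Hspb11 (-0.18 to 0.86).

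Between the lines with the 2 constructs, whose Ldb1 levels also differed, 4 HSP90 co-chaperones were higher and 8 lower in FL than in delta45, of 19 tested. Of 16 tested mitochondrial genes, 2 were higher and 9 lower. The medians were -0.35 and -0.41. In this comparison 25.8% of all tested genes were higher and 27% lower, with a median of -0.0052. Fkbp5 was at 37.2 ± 1.68 CPM in FL and 138 ± 1.49 in delta45 (SD, n = 3; log2 -1.89 ± 0.09, adjusted p = 2.63e-09). Aarsd1 and Ppid, the latter a cyclophilin that binds HSP90, were lower (log2 -1.55 and -1.22), as was Hspa9 (186 against 428 CPM, log2 -1.20). Stip1, which bridges HSP70 and HSP90, was higher in FL (462 against 242 CPM, log2 0.93). Dnajb2, a J-protein that sorts clients to the proteasome, was at 336 ± 25.7 CPM in FL and 58.6 ± 3.51 in delta45, a log2 change of 2.52 ± 0.23 (adjusted p = 9.54e-07). Of the heat-inducible genes, 3 were higher and 7 lower (11 lower with library totals only, and 5 or 6 higher without the filter, with DESeq2, with only the 2 groups fitted or with a replicate block).

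**Figure D5:**
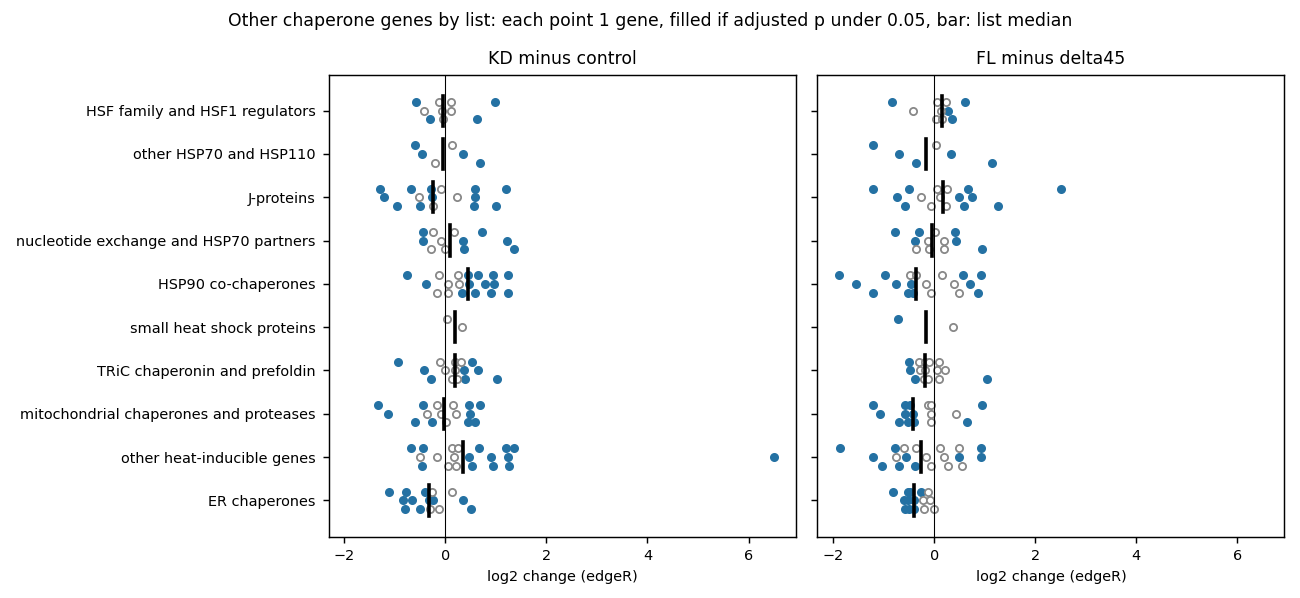
Log2 change (edgeR) of each tested gene in the 10 wider lists for KD minus control and FL minus delta45; filled points passed an adjusted p under 0.05 and black bars are list medians. The co-chaperone median is 0.45 in the first panel and -0.35 in the second; the far right point of the first panel is Jun, named after its value was seen, whose mean of 0.0196 CPM in control is below the level of 3 reads.

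Across the 12 libraries, Hsph1 and Hsp90aa1 had the highest correlation of log2 CPM among the member pairs (Pearson r = 0.94, and 0.89 after group means were removed). Hsp90aa1 and Hsp90ab1 gave 0.91 (0.22 within groups), Hsf1 and Hspd1 0.86 (-0.22), Hspd1 and Hspe1 0.53 (-0.47), and Hspa8 and Hspe1 -0.72 (0.68). These values are descriptions over 12 libraries that share their 4 groups and their scaling. The tested genes whose pattern was most like that of a member were Hdac10 and Ciz1 for Hsf1 (r = 0.98 and 0.97), Dapp1 and Map2k3 for Hspa8 (0.97 each), Mid1 and Isg20l2 for Hsph1 (0.99 and 0.98) and Mad2l1bp for Dnajb1 (0.98). Prps2 and Tlcd1 were most like Hsp90aa1 (0.996 and 0.993), Npdc1 most like Hsp90ab1 (0.98), Prim2 and Gpn1 most like Hspd1 (0.99 each), and Atp23 and Tmed3 most like Hspe1 (0.98 each).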

How the data were processed

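Polyadenylated RNA of induced MEL cells was measured in 12 libraries, 3 in each of 4 groups taken from the labels. Per the labels' protocols, the library kit was TruSeq RNA V2, an unstranded kit. Per the submitters' processing notes, the build was mm9 and the tools DESeq 1.10.1, HTSeq 0.5.3p9, TopHat 1.4.1 and cutadapt 1.1; the sources used here give neither their settings nor the annotation. The authors deposited whole-number read counts per Ensembl gene, not normalized; 5 closing entries that name no gene were left out of library sizes. Symbols came from a supplied table (32919 of 37991 identifiers matched). Replicates correlated least in KD (0.955 to 0.977, against 0.984 to 0.994 in the other groups), and no pair agreed within counting noise.

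Here, filterByExpr, TMM and edgeR 4.0.16 (glmQLFit, glmQLFTest, R 4.3.3) were run with 4 group means over 12 libraries and tested on simulated data first. SE is the absolute log2 change over the root of F. CPM is computed from the counts. The limit at 0 reads is 3 reads and covers counting error only. An exact permutation test of 3 against 3 cannot give a two-sided p under 0.1. Transcript windows used GENCODE M21 and promoter windows RefSeq, both on GRCm38, not the authors' build. The members and lists were chosen with earlier results of these data known. Named list genes were at most 4 per list and comparison, by absolute change among called genes with 5 CPM in either group and no overlap of libraries; likeness took the 5 highest Pearson r, without predicted or pseudogene names, and the text gives the first of them. Alternatives were RLE scaling, library totals, globin genes left out, other filters, DESeq2 1.42.0, only the 2 groups, a replicate block, near copies added and each library left out. The level of 1 marker gene is not reported here.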

Additional observations from a re-analysis of the deposited data

How the results depend on the processing

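Of 720 recomputed log2 changes of members, 670 kept their direction and their side of the threshold, 17 changed sign, 16 lost the call and 17 gained one. Members called higher in FL against KD numbered 1 with library totals only, with no low-count filter and with only the 2 groups compared, and 1 to 2 with a library left out; members called lower were 5 with library totals only. Members higher in FL against delta45 numbered 1 with library totals only and 1 to 2 with a library left out. Members lower in FL against control numbered 2 with RLE scaling, library totals only, at least 5 CPM in 3 libraries, DESeq2, only the 2 groups compared or a replicate block, and members lower in delta45 against KD 0 to 1 with a library left out. Sign changes with library totals only were Hspe1 in KD against control (0.016) and delta45 against control (0.0067), Hsph1 (-0.014) and Dnajb1 (-0.084) in FL against KD, Hsp90ab1 in FL against delta45 (-0.21) and Hsf1 in FL against control (-0.019). Hsp90aa1 in FL against KD was 0.034 with only the 2 groups compared, 0.049 with near copies added, and -0.056 to 0.067 with a library left out, above 0 without KD library 1 or 2. With a library left out, Hspe1 was -0.17 to 0.081 in KD against control (above 0 without control library 1, KD library 1 or KD library 2), -0.11 to 0.13 in delta45 against KD (above 0 without KD library 3 or delta45 library 3) and -0.11 to 0.027 in delta45 against control (above 0 without control library 1 or delta45 library 3). None of these reversed values was called by edgeR. The cause of these changes was not tested, apart from the scaling shift given with the FL comparisons. The labels link same-numbered libraries by number only, and whether they share a batch was not tested. The correlations of their deviations ran from -0.20 to 0.27. In each comparison among KD, delta45 and FL, 5 of 6 libraries correlated best with their own number. In each comparison with control, 2 of 6 did. With the replicate block, Hspd1 was called in FL against control (-0.24, adjusted p = 0.0377) and Dnajb1 in delta45 against control (0.32, adjusted p = 0.0392), and no other member call changed. The sum of Hspa1a and Hspa1b gave no value, as both had 0 reads. Counts of all called genes stayed within 1.5 times throughout.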

Other observations

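The chaperones of the endoplasmic reticulum are induced mainly by the unfolded protein response. Of 15 tested, 2 were higher and 9 lower in KD than in control (1 higher with RLE scaling, without the filter or with only those 2 groups fitted, and 5 lower in the last), with a median log2 change of -0.32. Of all tested genes 25.6% were higher and 24.1% lower there, with a median of 0.02. Canx, which encodes the lectin chaperone calnexin, fell from 911 ± 76.3 to 420 ± 42.3 CPM (SD, n = 3; log2 -1.11 ± 0.12, adjusted p = 1.29e-05), and Herpud1, a gene of the degradation pathway of that compartment, fell from 112 to 62.1 CPM (-0.85). FL had 0 higher and 10 lower than control, with a median of -0.65, and 0 higher and 10 lower than delta45, with a median of -0.41 (by edgeR; 0 were higher at an unadjusted p under 0.05, and 0 with DESeq2). The shares over all tested genes were 28.1% higher and 31.2% lower in FL against control and 25.8% and 27% in FL against delta45, with medians near 0 (-0.0051 and -0.0052). Creld2 and Pdia4, which act in disulfide formation, were lower in FL than in delta45 (log2 -0.81 and -0.61).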
